A study of Mus musculus with 6 samples.

Results

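Trim25, Mid2 and Mkrn2 encode ubiquitin ligases of the RING-finger class, and these 3 genes were taken by symbol from the 99 genes of the expression table. Poly(A) RNA came from B16F10, a wild-type mouse melanoma line, and was sequenced from 3 untreated cultures and 3 cultures given MTyr-OANPs for 48 h, a treatment known here by its code only. The labels name no vehicle group, no batch and no culture time for the untreated cultures. The treatment therefore cannot be told apart from handling, culture time or batch. The labels speak of biological replicates but do not tell how these were kept apart, and a p-value therefore covers only the variation among the 6 libraries.

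RING ligases hold a ubiquitin-conjugating enzyme next to a substrate, and so decide which proteins are tagged with ubiquitin. TRIM proteins join the RING to B-box zinc fingers and a coiled coil that pairs the chains. Trim25 is best known for activating the viral RNA sensor RIG-I and is itself induced by interferon and by estrogen. Mid2 is a TRIM protein that sits on microtubules and is a close relative of Mid1, the gene mutated in X-linked Opitz syndrome. Mkrn2 is a makorin, a RING protein with additional zinc fingers that bind RNA, and in mouse cells it is known to promote the breakdown of the NF-kappaB subunit RelA.

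The stretch that makes each of the 3 genes a RING ligase is shown first, since it is the feature they have in common. Each line is coding sequence from the GENCODE M21 transcript with the longest coding region, written 5′ to 3′ on the plus strand, with the codons of the zinc-binding cysteines and the histidine in capitals.
Trim25: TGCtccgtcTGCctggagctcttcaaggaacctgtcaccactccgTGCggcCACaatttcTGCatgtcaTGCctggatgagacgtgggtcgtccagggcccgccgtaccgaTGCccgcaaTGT
Mid2: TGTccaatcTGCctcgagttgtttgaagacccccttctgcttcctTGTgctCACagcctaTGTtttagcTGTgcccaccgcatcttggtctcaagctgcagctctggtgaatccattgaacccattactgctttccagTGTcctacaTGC
Mkrn2: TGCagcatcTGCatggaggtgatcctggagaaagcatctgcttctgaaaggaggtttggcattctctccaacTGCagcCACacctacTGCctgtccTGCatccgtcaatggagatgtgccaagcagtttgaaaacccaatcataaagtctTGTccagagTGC
The Trim25 stretch covers 123 bases of exon 1 on chromosome 11 (88999525 to 88999647, GRCm38) and codons 13 to 53 of 634. That of Mid2 covers 150 bases of exon 2 on chromosome X (140678079 to 140678228) and codons 10 to 59 of 715. In both TRIM genes the RING is therefore near the start of the protein. In Mkrn2 the stretch of 162 bases lies in codons 238 to 291 of 416, and it is split between exon 5 and the next exon on chromosome 6 (115613396 to 115614590). The stretches were located with a search pattern for the RING motif, which fixed or narrowly limited the length of most gaps between the capitals. In the 3 genes 5 of the 7 gaps had the same length, but this was largely set by the search and is not a separate finding. The pattern left wide room in gaps 2 and 6 only. Only the second gap, with 11 codons in Trim25, 11 in Mid2 and 20 in Mkrn2, and the sixth, with 13, 22 and 17, differed.

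After MTyr-OANPs, Trim25 was 2.39-fold lower, Mkrn2 was 1.23-fold lower and Mid2 was 1.31-fold higher. The 3 genes passed edgeR's quasi-likelihood test, and for each the untreated and treated libraries did not overlap. In this table such calls were common: 82.0% of the 61 genes tested passed the test, 45.9% as lower and 36.1% as higher (28 and 22 genes, but 23 and 25 under TMM scaling), and 83.6% did not overlap between groups. The calls of the 3 genes therefore do not set them apart from the other genes. Their median absolute log2 fold change was 0.38, against 0.52 over all genes tested.

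**Figure D1:**
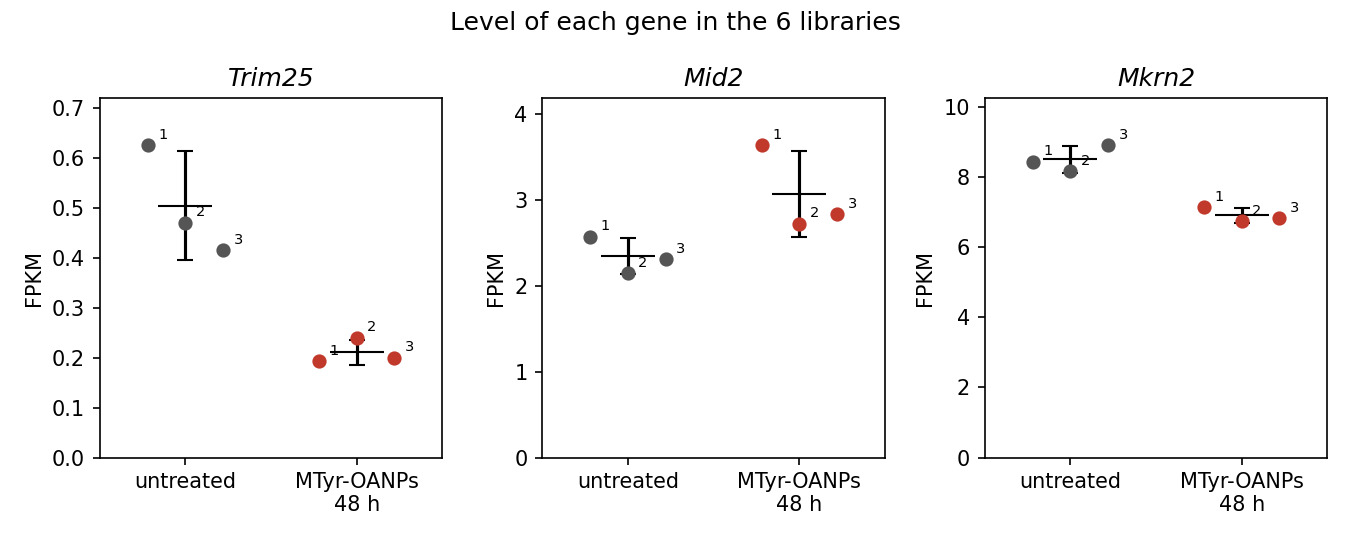
FPKM (fragments per kilobase of gene, scaled to library depth, linear axis from 0) of Trim25, Mid2 and Mkrn2 in 3 untreated (grey) and 3 treated (red) libraries, with replicate numbers, the mean (bar) and the SD (whiskers). Trim25 and Mkrn2 lie lower in every treated library and Mid2 lies higher, with treated library 1 of Mid2 above the other two.

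Trim25, Ensembl gene ENSMUSG00000000275, lies on the plus strand of chromosome 11 at 88999376 to 89020293 (GRCm38). It was the least abundant of the 3, with 0.626, 0.471 and 0.416 FPKM in untreated libraries 1, 2 and 3. The treated libraries gave 0.193, 0.240 and 0.200 FPKM, so that the highest treated value was well under the lowest untreated one. Behind these values stood counts of 301, 209 and 191 untreated and of 76, 118 and 99 treated. The mean level went from 0.504 ± 0.109 to 0.211 ± 0.0253 FPKM (SD, n = 3 each), a log2 fold change of -1.24 (SE 0.20, edgeR adjusted p = 4.2e-05). Untreated library 1 was the highest of its group, and without it the log2 fold change was -1.06 (edgeR adjusted p = 7.3e-04). The relative spread was larger than that of the other 2 genes among the untreated libraries, with a coefficient of variation of 21.6%. The size of the change depends on the scale for so low a gene, and on log2(FPKM + 1) limma gave -0.31.

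In bulk RNA a smaller amount of a transcript per cell and fewer cells that carry it cannot be told apart. Trim25 is also expressed in leukocytes, so the leukocyte markers in the table were read beside it, although the labels name B16F10 cells only. Of 7 such markers, 3 were in the table. Their summed level was 1.64 to 2.26 FPKM untreated and 2.71 to 3.31 treated, but the sum joins markers that changed in opposite directions. Among them Lck, a T cell kinase, went from 0.291 ± 0.0869 to 1.29 ± 0.194 FPKM and Itgb2, an integrin chain of white blood cells, from 0.404 ± 0.140 to 1.62 ± 0.115 FPKM (SD, n = 3 each), and both passed the test as higher. Tspan32, a tetraspanin of blood cells, passed as lower, from 1.21 ± 0.265 to 0.0991 ± 0.0505 FPKM (SD, n = 3 each). The part of these markers in the fall of Trim25 was not tested. The 1 macrophage marker in the table, Clec10a, and the 1 fibroblast marker, Fap, had no count in any treated library and at most 8 and 15 counts in an untreated one. Cdh1, the epithelial marker, had at most 16 counts in any library. None of the 9 pigment cell markers that would check the melanoma label was among the 99 genes analysed here.

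Mid2, Ensembl gene ENSMUSG00000000266, lies on the plus strand of chromosome X at 140664599 to 140767715 (GRCm38). It had 2.57, 2.15 and 2.31 FPKM in untreated libraries 1, 2 and 3. In the treated libraries it had 3.64, 2.73 and 2.83 FPKM. The groups were close to each other, with the highest untreated value at 2.57 and the lowest treated one at 2.73. Counts were 1743, 1347 and 1493 untreated and 1994, 1881 and 1961 treated, so that treated library 1, the shallowest of the 6, still held the most. The mean rose from 2.35 ± 0.213 to 3.07 ± 0.501 FPKM (SD, n = 3 each), a log2 fold change of 0.38 (SE 0.15, edgeR adjusted p = 2.4e-03).

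The rise of Mid2 rested on single libraries more than the fall of the other 2 genes did. Without untreated library 2, its lowest, the log2 fold change was 0.32 and the call was lost (edgeR adjusted p = 0.072). Without treated library 1, its highest, the log2 fold change was 0.24 and the gene still passed (edgeR adjusted p = 0.033). Only TMM scaling and DESeq2's own size factors gave larger values than any of the libraries left out, 0.52 and 0.50.

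Mkrn2, Ensembl gene ENSMUSG00000000439, lies on the plus strand of chromosome 6 at 115601902 to 115622624 (GRCm38). It was the most abundant of the 3 and varied least between replicates, with coefficients of variation of 4.45% untreated and 3.05% treated. Untreated libraries 1, 2 and 3 gave 8.44, 8.17 and 8.92 FPKM, and treated libraries 7.15, 6.75 and 6.83. All 3 treated values were below the lowest untreated value by at least 1 FPKM. The mean fell from 8.51 ± 0.379 to 6.91 ± 0.211 FPKM (SD, n = 3 each), a log2 fold change of -0.30 (SE 0.04, edgeR adjusted p = 4.5e-05). Counts were 4928, 4409 and 4962 untreated and 3376, 4018 and 4078 treated. Scaling by TMM, which moved the log2 fold changes of the tested genes upward by a median of 0.14, left -0.17 (edgeR adjusted p = 0.018), so the size of this small change depends on the scaling.

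**Figure D2:**
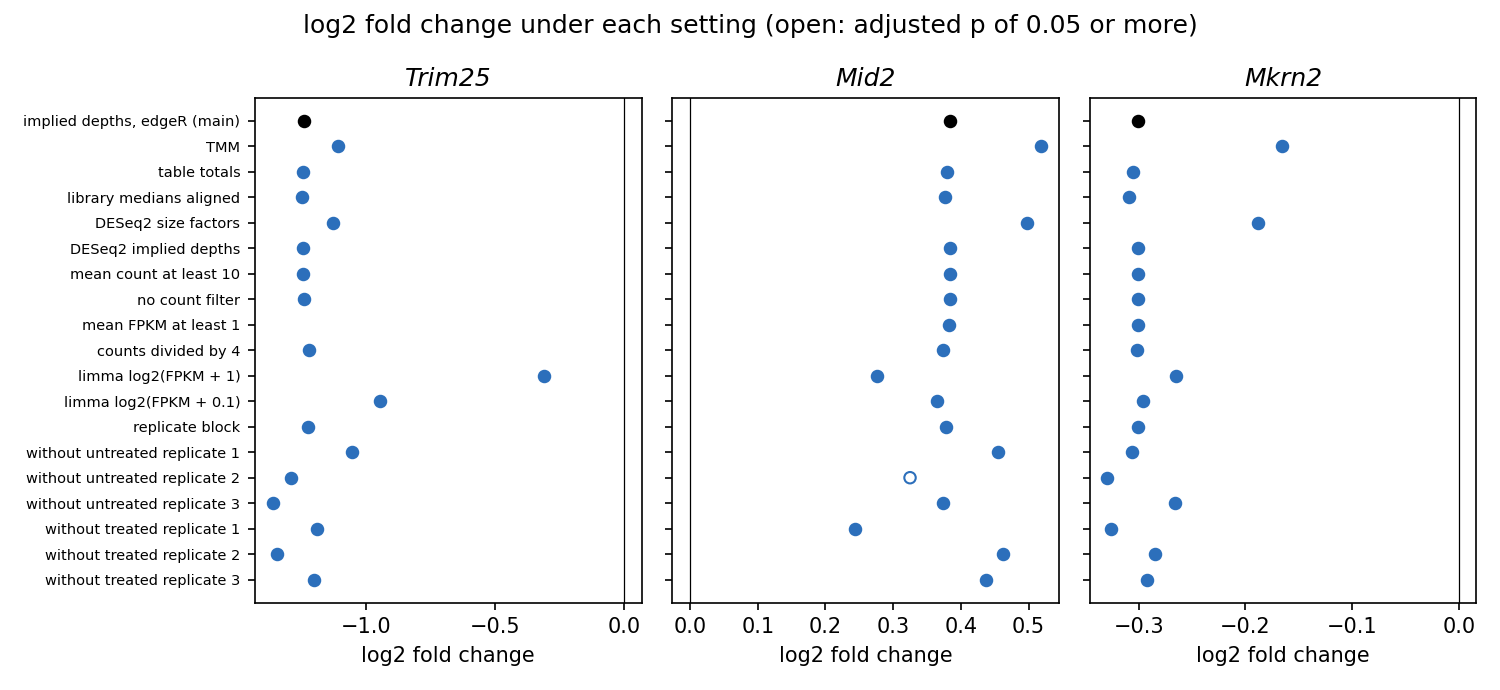
log2 fold change (treated over untreated) of Trim25, Mid2 and Mkrn2 under the main settings (black) and each alternative (blue). Filled points have an adjusted p under 0.05, and the vertical line is no change. Every point keeps its side of 0, and the open point is Mid2 without untreated library 2, at 0.32.

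Trim25 and Mid2 shared no exonic base with another annotated gene in GENCODE M21, and no stretch of 100 bases of their transcripts was found in transcripts of another gene, on either strand. Mkrn2 did share exonic bases. Whether strand was used in counting is not stated in the sources, so reads from such bases may not have been told apart, and the value of Mkrn2 is uncertain to that extent. Counts divided by FPKM gave a length of 7007 bases for Mkrn2 against 7005 exonic bases, so its FPKM was scaled to its full exonic length.

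FPKM is scaled to gene length, so levels were compared between the 3 genes. The length was that of all annotated exons of several transcripts per gene, and the transcripts expressed may be shorter. Mkrn2 also shared exonic bases, so the distances between genes are approximate. In all 6 libraries Mkrn2 was higher than Mid2 and Mid2 was higher than Trim25, and no neighbours in this order overlapped. Mkrn2 stood 3.28 to 3.85 times above Mid2 in untreated libraries and 1.96 to 2.48 times above it in treated ones. Mid2 stood 4.11 to 5.56 times above Trim25 untreated and 11.4 to 18.8 times treated. The distance between the 2 TRIM genes thus widened, and that between Mid2 and Mkrn2 narrowed.

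Such ratios within a library do not depend on how libraries are scaled, and they ask whether 2 of the genes changed by different amounts. The log2 ratio of Trim25 to Mid2 went from -2.24 to -3.85, a difference of -1.62 (SE 0.25). Between Trim25 and Mkrn2, which both fell, the log2 ratio differed by -0.94 (SE 0.23), from -4.10 to -5.04. For Mid2 against Mkrn2 it rose by 0.68 (SE 0.13), from -1.86 to -1.18. Untreated and treated libraries did not overlap in any of the 3 ratios. An exact two-sided permutation test over the 6 libraries gave p = 0.1 for each ratio and 0.1 after adjustment over the 3, which is the smallest p that 3 against 3 libraries allow, so none could pass 0.05.

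**Figure D3:**
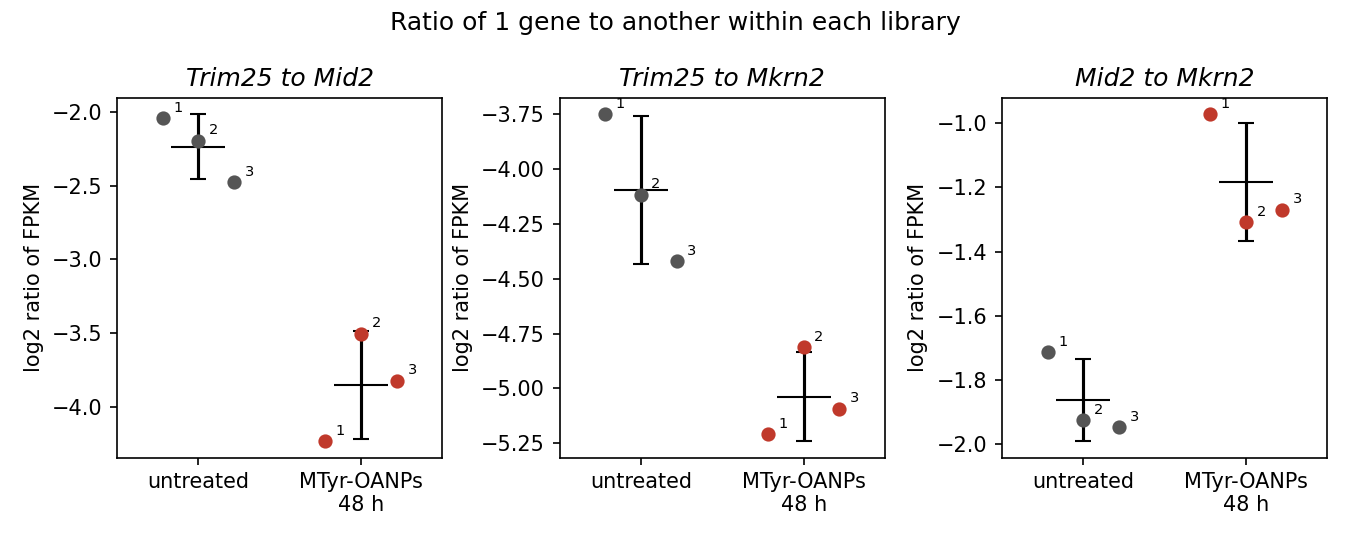
log2 ratio of FPKM of one gene to another within each library (vertical axes differ and do not start at 0), for 3 untreated (grey) and 3 treated (red) libraries with replicate numbers, mean and SD. The ratio of Trim25 to either other gene is lower in every treated library, and that of Mid2 to Mkrn2 is higher.

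The table held few other genes of the ubiquitin system. Of the ubiquitin ligase list, 4 genes were in the table, the 3 described and Rnf17, a germ cell RING and Tudor protein, which had a count of 0 in all 6 libraries. No ubiquitin-conjugating enzyme, deubiquitinase or proteasome subunit of the lists was among the 99 genes. Polycomb repressive complex 1, which carries the RING ligases that ubiquitinate histone tails, was represented by Scml2 and Scmh1, related Sex comb proteins that bind the complex. These 2 genes passed the test in opposite directions. Scml2 fell from 0.863 ± 0.0317 to 0.343 ± 0.144 FPKM (SD, n = 3 each), with a log2 fold change of -1.31 (SE 0.41, edgeR adjusted p = 1.3e-05). That SE is of log2 FPKM, where the difference was -1.44. With 1 library left out, the edgeR log2 fold change of Scml2 ranged from -1.57 to -1.02. It was nearest 0 without treated library 1, the lowest for Scml2. Scmh1 rose from 2.94 ± 0.305 to 3.86 ± 0.435 FPKM (SD, n = 3 each), with a log2 fold change of 0.39 (SE 0.13, edgeR adjusted p = 5.5e-04).

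Of the list of RIG-I signalling and interferon-induced genes, the setting in which Trim25 is best known, Mx1 and Slfn4 were in the table. Mx1, an interferon-induced gene, had counts of 53, 39 and 26 untreated and of 5, 15 and 8 treated. Every treated count of Mx1 was below every untreated one, and the same held for its FPKM. The direction was that of Trim25, but 45.9% of the 61 genes tested passed as lower and 83.6% did not overlap between groups. The mean count of Mx1 was below the minimum of 50 used for the test. With a minimum of 10 it gave a log2 fold change of -2.05 (edgeR adjusted p = 0.020), and with no minimum it did not pass (edgeR adjusted p = 0.12). Slfn4 had a count of 0 in every library.

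**Figure D4:**
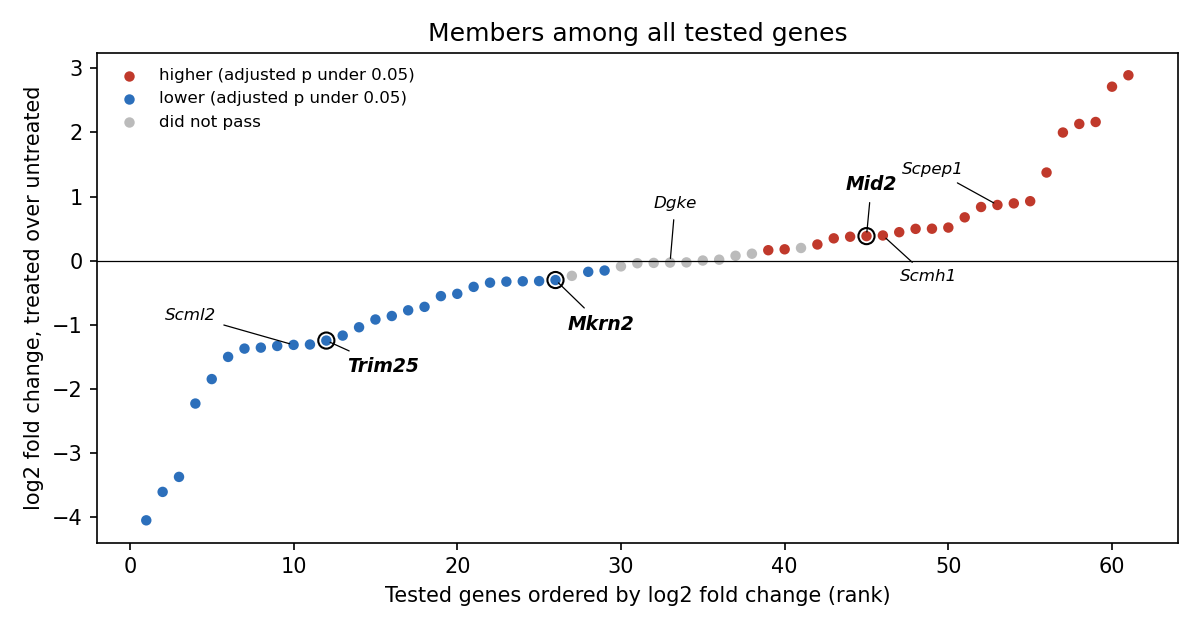
log2 fold change (treated over untreated, edgeR) of the 61 tested genes in order of size, in red where higher and in blue where lower at an adjusted p under 0.05, and in grey where the test was not passed. Trim25, Mid2 and Mkrn2 are circled: Trim25 lies toward the falling end at -1.24, while Mkrn2 (-0.30) and Mid2 (0.38) lie on either side of the middle.

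Among the 61 tested genes, 43 changed less than Trim25 on the absolute log2 scale, 23 less than Mid2 and 16 less than Mkrn2. The neighbours of Trim25 in the table did not fall. Scpep1, a serine carboxypeptidase 43.9 kb away, rose 1.83-fold, with 135 ± 5.60 FPKM untreated and 247 ± 8.15 FPKM treated (SD, n = 3 per group) and an edgeR adjusted p = 1.9e-18. Dgke, a diacylglycerol kinase 14.9 kb away, had 3.27 ± 0.630 and 3.21 ± 0.525 FPKM (SD, n = 3 each) and did not pass the test (log2 fold change -0.03, SE 0.22, edgeR adjusted p = 0.83). Near Mkrn2, Pparg, the fat cell nuclear receptor, had a count of 8 in treated library 2 and 0 elsewhere. No gene of the table lay within 200 kb of Mid2.

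Likeness of pattern was measured as the root-mean-square difference of log2 FPKM over the 6 libraries, after centring each gene on its mean, against 59 other tested genes. Closest to Trim25 were Cav2, a caveolin, at 0.19, Cdc45, part of the replicative helicase, at 0.20, and Hddc2 at 0.21. Their levels fell 2.58-fold, 2.05-fold and 2.48-fold. For Mid2 the closest were Klf6, a Kruppel-like transcription factor, at 0.09, Mnt, a repressor that binds Max, at 0.12, and Ccnd2, cyclin D2, at 0.12. These rose 1.30-fold, 1.43-fold and 1.36-fold. Mkrn2 had the closest neighbours, Dazap2 at 0.05, Ndufa9, a subunit of NADH dehydrogenase, at 0.06, and Tom1l2, an endosomal sorting protein, at 0.08. They fell 1.25-fold, 1.27-fold and 1.25-fold. These 9 genes were chosen for their likeness to the members, which fixes their direction, so their changes are a description.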

How the data were processed

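The authors' deposited table gives whole-number counts and FPKM values for 99 genes, per the file headers. CASAVA 1.4 and mm9 appear in the submitters' processing notes, but the coordinates of the 3 genes equal GENCODE M21 on GRCm38. The aligner, the counting tool and its strand setting are not stated in the sources. The members and lists were chosen with earlier results of these data known.

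Library sizes came from counts divided by FPKM over 59 genes with counts of at least 50. TMM served as an alternative only, because a table of so few genes was judged unable to carry it. Relative depths ran from 0.850 to 1.07. Library sizes of 67413391 to 85232904, in units of the deposited counts, were implied from the exonic lengths of 7 single-transcript genes. Totals over the table ran from 334160 to 421423 counts. A mean count of 50 or more was required, and the 61 genes that reached it were tested with edgeR 4.0.16 (quasi-likelihood, R 4.3.3, two-sided, Benjamini-Hochberg, threshold 0.05). That minimum was used in place of an FPKM minimum of 1 because the latter leaves out Trim25. Spread was shared among genes (common coefficient of variation 7.67%). SEs came from log2 FPKM within groups. Ratios were tested with scipy 1.17.1. The edgeR, limma 3.58.1 and DESeq2 1.42.0 steps were tested on simulated data. The simulation gave all genes the same spread, unlike these data, so it does not test the calls of genes that vary as Trim25 did. Replicates differed by more than sampling noise (chi-square per gene of 9.58 to 19.0). Named genes were the 3 members, list genes, genes within 200 kb and the 3 most alike for each member, and 1 gene that this rule takes is not reported here.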

Additional observations from a re-analysis of the deposited data

How the results depend on the processing

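Alternatives covered scaling, filters, DESeq2, limma, counts divided by 4, the replicate block and leaving out each library. Trim25 passed in all 17 alternatives that tested it (-1.36 to -0.31) and Mkrn2 in all 18 (-0.33 to -0.17). Mid2 passed in 17 of 18 (0.24 to 0.52). With 1 library left out, Mid2 ranged from 0.24 to 0.46 and Dgke from -0.17 to 0.10. Dgke, which never passed, changed sign under TMM (0.11) and DESeq2's size factors (0.086). The cause was not tested. TMM and DESeq2's size factors moved all changes up by a median of 0.14 and 0.11. Under them 25 and 24 genes were higher and 23 and 23 lower, against 22 higher and 28 lower. Genes passing numbered 44 to 53 against 50, and 45 to 49 with 1 library left out. The log2 ratio changes ranged from -1.79 to -0.59 (Trim25 to Mid2), -1.10 to -0.04 (Trim25 to Mkrn2) and 0.54 to 0.75 (Mid2 to Mkrn2). The values nearest 0 came from log2(FPKM + 1), whose pseudocount shrinks Trim25. On that scale the Trim25 to Mkrn2 ratio overlapped between groups (exact permutation p = 0.6). Same-numbered libraries correlated at 0.27, 0.34 and 0.09 in their deviations, and 1 of these is under 0.1, so the libraries were not treated as pairs. Each library correlated best with its own number, a hint from the data and not from the design. The replicate block gave 51 calls, with -1.22, 0.38 and -0.30 for Trim25, Mid2 and Mkrn2, and -1.62, -0.94 and 0.68 for the 3 ratios. Trim25 rests on 76 to 301 counts per library. Many of the lowest counts were multiples of 4, such as 12, 4, 8, 8 and 16 for Cdh1, though not all were. Hence 1 count may be less than 1 fragment, and Trim25 may rest on fewer fragments than counts. With counts divided by 4, the log2 fold change of Trim25 was -1.22 (edgeR adjusted p = 1.4e-05). Spread was estimated anew in that fit, and its p was lower than that of the main fit (edgeR adjusted p = 4.2e-05). It therefore does not show whether the call would hold with fewer fragments.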
